A study of Macaca mulatta with 20 samples.

Results

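B2M, MAMU-B and CD74 are genes of antigen presentation by the major histocompatibility complex (MHC), and their RNA was followed here through the life of the rhesus macaque corpus luteum, the progesterone-secreting gland that the follicle becomes after ovulation. Members were all probe sets that the array's platform annotation pairs with exactly 1 symbol, equal to B2M, CD74 or MAMU-B. This gave 5 probe sets (2 for B2M, 1 for CD74 and 2 for MAMU-B) of 52707 tested, and 3 genes of the 14132 that have a probe set of their own. Another 1 probe set names MAMU-B beside other class I genes and was left out of the members.

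Total RNA of 20 corpora lutea from female macaques with normal menstrual cyclicity was hybridised to Affymetrix rhesus arrays, 1 gland per array, with 4 arrays at each of 5 stages of natural cycles. Days are counted from the midcycle surge of luteinizing hormone. The early stage (days 3 to 5) is the gland still forming, the mid stage (days 7 to 8) the gland at its peak of progesterone output, and the mid-late stage (days 10 to 12) a gland still secreting but close to regression. At the late stage (days 14 to 16) secretion is ending, and at the very-late stage (days 18 to 19) the tissue is being dismantled. No animal was treated, and the early stage served as the baseline.

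MHC class I molecules are made by most nucleated cells. A polymorphic heavy chain, such as those encoded by MAMU-A and MAMU-B in the macaque, pairs with the invariant light chain beta-2-microglobulin, encoded by B2M, and shows peptides from the cell's own proteins to CD8 T cells and to inhibitory receptors of natural killer cells. MHC class II molecules are made chiefly by macrophages, dendritic cells and B cells and show peptides from engulfed material to CD4 T cells. Their chains assemble on the invariant chain, encoded by CD74, which blocks the peptide groove until proteases in the endosome remove it, and CD74 at the cell surface also binds the cytokine MIF.

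The deposited values are on a log2 scale and ran from 2.48 to 14.28, with array medians of 3.88 to 3.98. Background was taken from 683 probe sets for viral genomes, with a median of 3.42 and a 95th percentile of 4.30. On 6 probe sets of the mitochondrial genome the arrays split into 13 at 11.5 to 12.5 and 7 at 7.02 to 8.93, and the low group held the whole mid stage (4 arrays) plus 3 others, namely replicate 4 of early, replicate 1 of mid-late and replicate 2 of very-late. GAPDH read higher at its 3' than at its 5' end by 2.70 in very-late replicate 1, against 0.831 to 1.78 in the other 19 arrays. The same difference for actin was 0.117 in that array, inside the range of -0.199 to 0.973 of the other 19 arrays. Transcripts of steroidogenic cells (STAR, HSD3B2, CYP19A1, FDX1 and INHA) had list means of 11.67 (early), 12.20 (mid), 12.15 (mid-late), 11.63 (late) and 8.17 (very-late). In whole tissue, fewer cells of a type and less RNA per cell cannot be told apart, and a rise of one cell type's RNA lowers the share of the others.

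Differences below are of log2 stage means, with their standard error from limma's linear model over all 20 arrays and n = 4 arrays per stage. Adjusted p-values are Benjamini-Hochberg over the 52707 probe sets of a comparison, and an adjusted p under 0.05 is called. All 5 member probe sets passed the test for any difference between the 5 stages, as did 21.5% of all probe sets.

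B2M, the light chain that every classical class I molecule needs, was higher from the mid-late stage on than at the early stage, by amounts well under 2-fold. On its representative probe set (the one with the higher mean over the arrays), the 4 early arrays read 12.73, 12.89, 12.68 and 12.94, and the mid arrays 12.85, 12.89, 13.07 and 13.04. The mid-late arrays read 13.25, 13.12, 13.17 and 13.16, the late arrays 13.18, 13.31, 13.20 and 13.32, and the very-late arrays 13.33, 13.25, 13.14 and 13.07. All 12 arrays of the mid-late, late and very-late stages lay above all 4 early arrays, while the early and mid arrays overlapped. Stage means ± SD were 12.81 ± 0.12, 12.96 ± 0.11, 13.18 ± 0.06, 13.25 ± 0.07 and 13.20 ± 0.11 from early to very-late.

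The second B2M probe set read 12.48, 12.70, 12.50 and 12.70 at the early stage, 12.60, 12.61, 12.85 and 12.86 at the mid stage, and 13.04, 13.04, 13.05 and 13.04 at the mid-late stage. It read 13.05, 13.17, 13.13 and 13.23 at the late stage and 13.14, 13.10, 12.99 and 12.93 at the very-late stage. Again the mid-late, late and very-late arrays all lay above the early ones. Across the 20 arrays the 2 probe sets of B2M correlated at r = 0.978, and their deviations from the stage means at r = 0.922, so they ordered the single glands alike.

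In limma, B2M rose from the early to the mid-late stage by 0.36 ± 0.07 (adjusted p = 0.00976) on the representative probe set and by 0.45 ± 0.07 (adjusted p = 0.00322) on the second. From the early to the late stage the rises were 0.44 ± 0.07 (1.36-fold, adjusted p = 0.00116) and 0.55 ± 0.07 (1.47-fold, adjusted p = 0.000210). From the early to the very-late stage they were 0.39 ± 0.07 (1.31-fold, adjusted p = 0.000747) and 0.45 ± 0.07 (1.36-fold, adjusted p = 0.000227). In order of level, the stages ran early, mid, mid-late, very-late and late on the representative probe set, and neighbours in that order did not pass the test. The early and mid arrays overlapped (0.15, adjusted p = 0.470), and the mid-late, late and very-late means lay within 0.08 of each other. The mid-late arrays all lay above the mid arrays, but the difference of 0.21 did not pass (adjusted p = 0.617). Against the mid stage the late mean was higher by 0.29 (adjusted p = 0.0476) on the representative and 0.41 (adjusted p = 0.00627) on the second probe set. The first of these calls was lost in 20 of 29 alternative fits, among them each of 15 that left out 1 array.

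**Figure D1:**
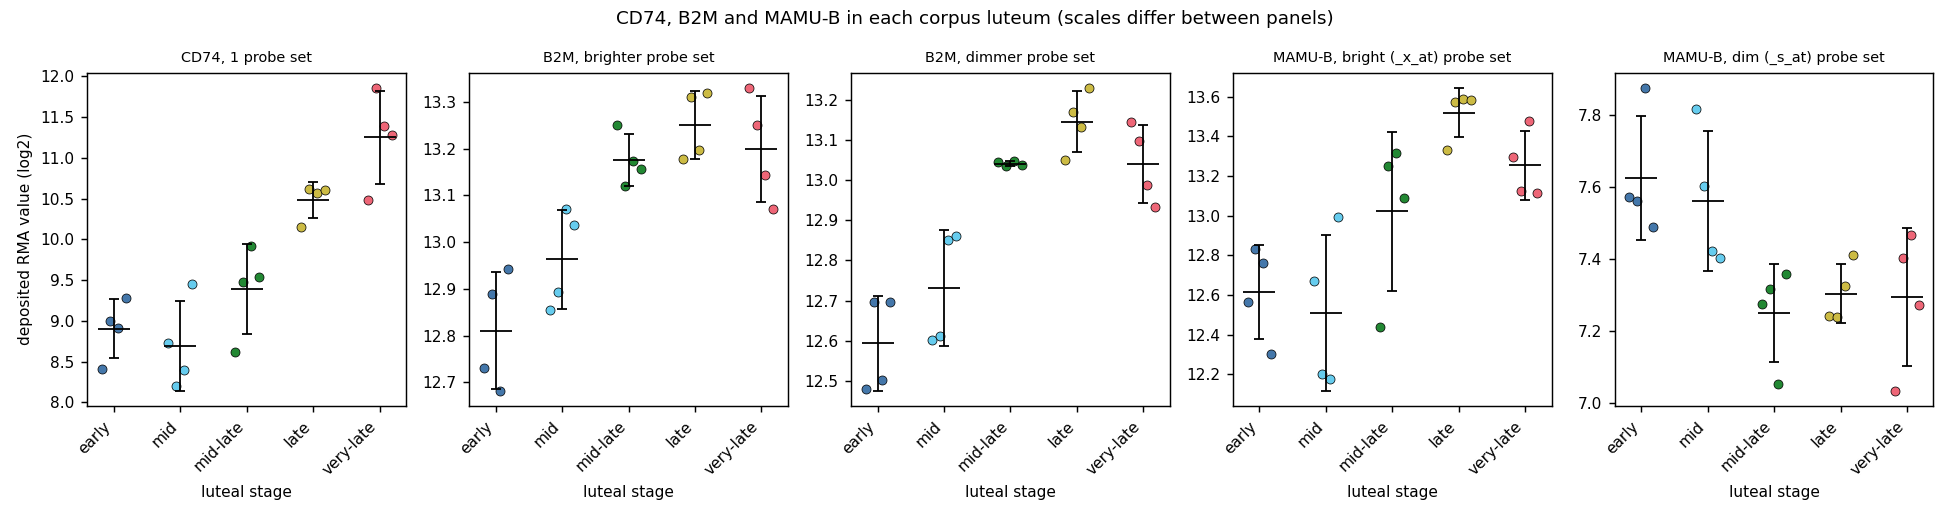
Log2 value of each of the 20 arrays for the 5 member probe sets, 1 panel each, by stage from early to very-late, with the mean and SD of each stage (n = 4). B2M lies higher from the mid-late stage on, CD74 climbs from an early mean of 8.90 to a very-late mean of 11.25, and the 2 probe sets of MAMU-B go in opposite directions.

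MAMU-B, a classical class I heavy chain gene that is duplicated and highly variable among macaques, was higher at the late than at the early stage on its representative probe set, and highest there of all 5 stages. The early arrays read 12.57, 12.83, 12.76 and 12.30, the mid arrays 12.67, 12.20, 12.18 and 12.99, and the mid-late arrays 12.44, 13.25, 13.32 and 13.09. The late arrays read 13.33, 13.57, 13.59 and 13.59, and the very-late arrays 13.30, 13.12, 13.48 and 13.12. All late and very-late arrays lay above all early arrays, and at the mid-late stage 3 of the 4 did, replicate 1 being the exception. Late replicate 1, at 13.33, stood below the other late arrays, which differed by no more than 0.02. Stage means ± SD were 12.62 ± 0.24, 12.51 ± 0.39, 13.02 ± 0.40, 13.52 ± 0.13 and 13.25 ± 0.17.

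On this probe set MAMU-B rose from the early to the late stage by 0.90 ± 0.19 (1.87-fold, limma, adjusted p = 0.00652) and from the mid to the late stage by 1.01 ± 0.19 (2.01-fold, adjusted p = 0.00965). It was higher at the very-late than at the early stage by 0.64 ± 0.19 (1.56-fold, adjusted p = 0.0243). That call was lost without early replicate 1 (adjusted p = 0.0530), early replicate 4 (0.0881), very-late replicate 1 (0.0523) or very-late replicate 3 (0.0742). The order of the means was mid, early, mid-late, very-late and late, and no neighbours in it passed the test. The difference of late from mid-late was 0.50 with no overlap between arrays (adjusted p = 0.626), and that of very-late from late was -0.27 (adjusted p = 0.454).

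The other MAMU-B probe set moved the opposite way at a lower signal. It read 7.57, 7.56, 7.87 and 7.49 at the early stage, 7.82, 7.60, 7.42 and 7.40 at the mid stage, and 7.28, 7.32, 7.05 and 7.36 at the mid-late stage. It read 7.24, 7.24, 7.32 and 7.41 at the late stage and 7.03, 7.40, 7.47 and 7.27 at the very-late stage. The mid-late, late and very-late arrays all lay below the early ones. Its fall from early to very-late was 0.33 ± 0.11 on the log2 scale (a difference of -0.33, adjusted p = 0.0434), and this call was lost in 15 of 30 alternative fits, including 9 that left out 1 array. The late minus early difference of -0.32 did not pass (adjusted p = 0.0914). Over the 20 arrays the 2 MAMU-B probe sets correlated at r = -0.492.

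By the array's naming, the representative MAMU-B probe set holds probes that can match other sequences, and the other matches several transcripts, so class I genes of near-identical sequence can share their signal. The identifier that the platform annotation gives for MAMU-B matches 0 genes of the current RefSeq table, in which 3 other genes carry that name as a synonym. The values of MAMU-B are therefore those of a class I signal that may come from several loci. The probe set left out of the members, which names MAMU-B with MAMU-A, MAMU-I and a pair of unnamed loci, rose by 1.38 ± 0.26 from early to late (adjusted p = 0.00293).

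CD74, the invariant chain of class II, changed most of the 3 genes, and unlike B2M and MAMU-B it had its highest mean at the very-late stage. The early arrays read 8.41, 9.00, 8.91 and 9.28, the mid arrays 8.73, 8.20, 8.39 and 9.45, and the mid-late arrays 8.62, 9.48, 9.92 and 9.53. The late arrays read 10.15, 10.62, 10.57 and 10.60, and the very-late arrays 10.48, 11.86, 11.39 and 11.28. The early, mid and mid-late arrays overlapped, and all 8 late and very-late arrays lay above all 12 of them. Very-late replicate 1 read 10.48, inside the range of the late arrays, while the other very-late arrays lay above that range. This array had the high GAPDH 3' to 5' difference, but its actin difference of 0.117 lay within the range of the other arrays. Stage means ± SD were 8.90 ± 0.36, 8.69 ± 0.55, 9.39 ± 0.55, 10.49 ± 0.22 and 11.25 ± 0.57. By mean over the 20 arrays, CD74 ranked 960 among the 52707 probe sets. The B2M probe sets ranked 25 and 31, and the representative MAMU-B probe set ranked 28. Whether signal that near the highest value of 14.28 narrowed the changes of B2M and MAMU-B was not tested.

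CD74 rose by 1.58 ± 0.31 from the early to the late stage (3.00-fold, limma, adjusted p = 0.00377) and by 2.35 ± 0.31 from the early to the very-late stage (5.11-fold, adjusted p = 2.10e-05). Against the mid stage, where its mean was lowest, it was 3.46-fold higher at the late stage (1.79 ± 0.31, adjusted p = 0.00496) and 5.90-fold higher at the very-late stage (2.56 ± 0.31, adjusted p = 7.63e-06). Against the mid-late stage it was higher at very-late by 1.87 ± 0.31 (3.65-fold, adjusted p = 0.000248). The order of the means was mid, early, mid-late, late and very-late, and no neighbours passed. The late arrays all lay above the mid-late arrays, yet the difference of 1.10 did not pass (adjusted p = 0.342). The very-late minus late difference was 0.77 (adjusted p = 0.120) and did not pass in 29 of the 30 alternative fits. It was 0.57 without very-late replicate 2. Without very-late replicate 1 it was 1.03 and passed (adjusted p = 0.0318).

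The members' calls were read against those of all probe sets. In late against early, 4 of the 5 member probe sets were called, all higher, where 7.58% of all probe sets were called and 3.61% were called higher. The same 4 had every late array above every early array, as had 7.19% of all probe sets, and the other MAMU-B probe set had every late array below, as had 6.48%. The median difference over all probe sets was 0. In very-late against early all 5 were called, 4 higher and 1 lower, where 18.7% of all were called, 9.45% higher and 9.21% lower. The 4 lay wholly above the early arrays and the 1 wholly below, as did 8.97% and 8.87% of all probe sets.

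In mid-late against early both B2M probe sets were called higher and no other member was called, where 3.73% of all probe sets were called and 1.62% called higher. The 2 lay wholly above the early arrays, as did 6.04% of all, and the other MAMU-B probe set wholly below, as did 5.91%. CD74 was at 0.49 (limma, adjusted p = 0.520) and the representative MAMU-B probe set at 0.41 (adjusted p = 0.315), with overlapping arrays. In late against mid 4 members were called higher, where 2.17% of all were called and 1.07% called higher, and the 4 lay wholly above the mid arrays, as did 5.23% of all. In very-late against mid 4 were called higher, where 18.6% of all were called and 9.44% called higher. Of these, 3 lay wholly above the mid arrays, as did 9.25% of all, and the representative B2M probe set overlapped. CD74 alone was called in very-late against mid-late, where 17.4% of all were called and 8.86% called higher, and it lay wholly above, as did 9.67% of all.

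No member was called by limma in the remaining comparisons, which were mid with early (0.362% of all probe sets called), mid-late with mid (0.0114%), late with mid-late (0.0114%) and very-late with late (13.8%). Between mid and early the 5 members lay from -0.21 to 0.15, with adjusted p of 0.470 to 0.922. Between mid-late and mid, both B2M probe sets lay wholly above (2.14% of all probe sets did) and the other MAMU-B probe set wholly below (2.65%). Between late and mid-late, CD74, the representative MAMU-B probe set and the second B2M probe set lay wholly above, as did 2.98% of all. Between very-late and late, CD74 stood at 0.77 and the other 4 members from -0.27 to -0.01, with adjusted p of 0.439 to 0.977. At an unadjusted p under 0.05, the members past the test numbered 0, 5, 2 (CD74 and the representative MAMU-B probe set) and 1 (CD74) in these 4 comparisons.

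Whether the members changed by unequal amounts was tested within arrays, by the difference between a pair of genes in each gland. The rise of CD74 exceeded that of B2M by 1.14 ± 0.17 from early to late, and the difference from late to very-late was 0.82 ± 0.33. For CD74 against MAMU-B the differences were 0.68 ± 0.25 and then 1.04 ± 0.33. For MAMU-B against B2M they were 0.46 ± 0.16 and -0.22 ± 0.11. In the exact two-sided permutation test of 4 against 4 arrays the smallest p is 0.0286. Over the 28 such differences tested, that value adjusted to 0.0727, and none passed. With that smallest p, full separation of the arrays in 1 difference could not pass by itself. No conclusion is therefore drawn from the lack of a pass. For CD74 minus B2M and for MAMU-B minus B2M, the 4 late arrays all lay above the 4 early arrays.

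Other MHC genes were set beside the members, since the array holds 29 further probe sets with a single MAMU symbol, of 12 genes. Among the 13 class I ones other than MAMU-B, 7 rose from early to late, where 3.61% of all probe sets did. None of the 13 fell, and the median difference was 1.53. Over the alternatives run, the count that rose was 6 to 10. At the very-late stage none was higher than at late, 2 were lower, where 7.03% of all probe sets were called lower, and the median was -0.63. The count of 2 became 0 without late replicate 2 or late replicate 4, and 1 without late replicate 3, very-late replicate 1 or very-late replicate 4. The highest stage mean was the late one in 9 of the 13, as in MAMU-B, the very-late one in 3 and the early one in 1.

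MAMU-I, a class I gene that lies close to MAMU-B in sequence, read 10.49, 10.77, 10.77 and 11.03 at the early stage and 11.90, 12.55, 12.39 and 12.57 at the late stage, with no overlap. It rose by 1.59 ± 0.18 (limma, adjusted p = 3.94e-05), and at the very-late stage (11.48, 11.64, 12.07 and 11.54) it was lower than at the late stage by 0.67 (a difference of -0.67 ± 0.18, adjusted p = 0.0144). That fall did not pass without late replicate 2 (adjusted p = 0.0510) or late replicate 4 (adjusted p = 0.0529). MAMU-A, the other classical heavy chain locus, rose by 0.84 ± 0.19 from early to late (adjusted p = 0.0117) and was at -0.04 from late to very-late (adjusted p = 0.944). With its probe sets averaged, the rise did not pass (0.76, adjusted p = 0.102). MAMU-AG, a nonclassical gene of the placenta, was higher by 0.58 at the late stage on its representative probe set and did not pass (adjusted p = 0.112). Its other probe set, near the 95th percentile of background, rose by 0.52 ± 0.13 from 3.90 to 4.42 (adjusted p = 0.0155), a call lost without early replicate 3 or late replicate 2.

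MAMU-E, whose product presents leader peptides of other class I chains to natural killer cells, has several probe sets. The one that passed rose by 1.80 ± 0.29 from early to late (adjusted p = 0.000995) and fell by 0.94 from late to very-late (adjusted p = 0.0378), the fall being lost in 6 of the fits that left out 1 array (late replicates 2, 3 and 4 and very-late replicates 1, 2 and 4). With the probe sets averaged, neither the rise (1.78, adjusted p = 0.0755) nor the fall (adjusted p = 0.105) passed. Among class I relatives that also bind B2M, FCGRT, the Fc receptor that recycles immunoglobulin G, rose by 0.70 ± 0.11 from early to late (adjusted p = 0.00101). HFE, which regulates iron uptake, fell by 0.51 from late to very-late (adjusted p = 0.0221), a call lost without late replicate 2 or 3 or very-late replicate 2 or 3.

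**Figure D2:**
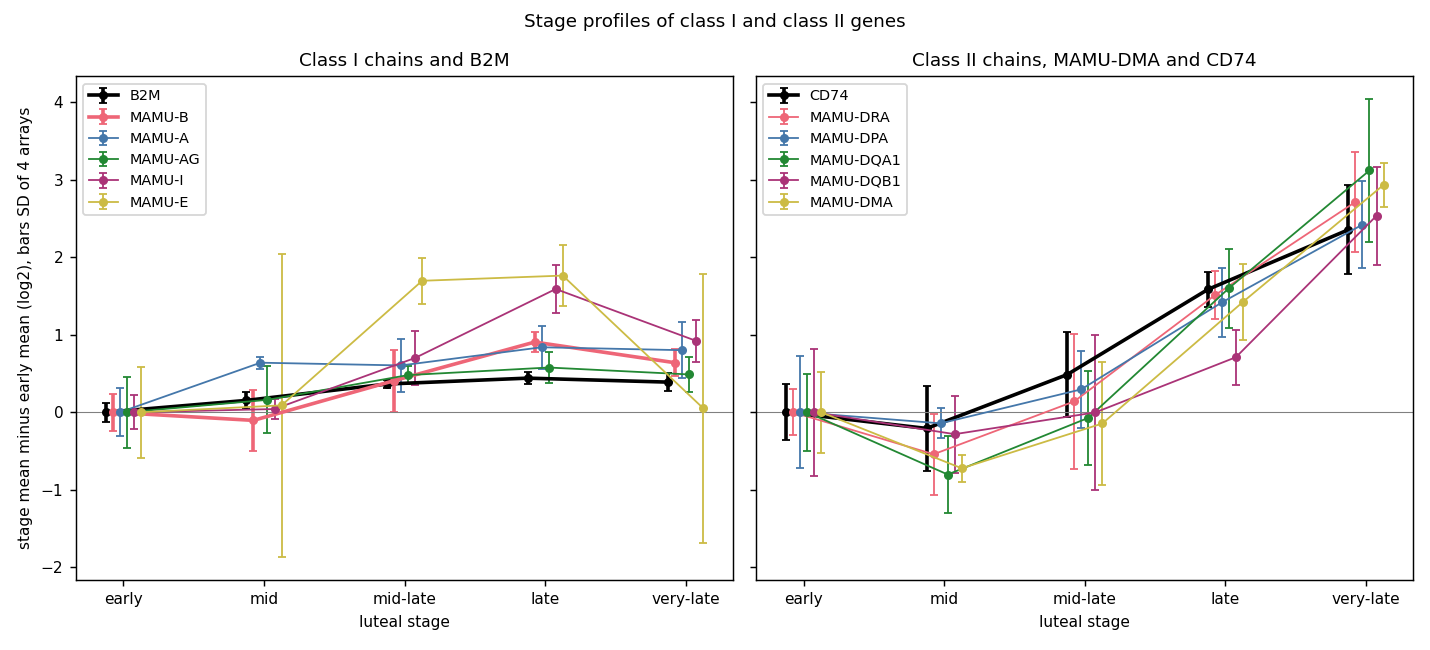
Stage mean minus the early mean (log2, with the SD of the 4 arrays of each stage) for B2M and class I heavy chain genes on the left and for CD74 and class II genes on the right, from early to very-late. MAMU-B and MAMU-I peak at the late stage, MAMU-E has wide bars at mid and very-late, where 1 array each is low, B2M stays within 0.08 between mid-late and very-late, and CD74 and the class II genes are highest at the very-late stage.

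The class II chains followed CD74 in being highest at the very-late stage. All 16 class II probe sets with a single symbol had their highest mean there. Of the 16, 7 rose from early to late, where 3.61% of all probe sets did, with a median of 1.01. From early to very-late 13 rose, where 9.45% of all did, with a median of 2.48. From late to very-late 10 rose, where 6.75% of all did, with a median of 1.16. None fell in these comparisons, and 12 of the 16 were above background at some stage. The count of 7 became 4 without early replicate 1, early replicate 3 or late replicate 2 and 3 without late replicate 4. The count of 10 became 6 without late replicate 3 or without very-late replicate 2, and 3 without both very-late replicates 1 and 2.

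MAMU-DRA, the alpha chain of DR, read 9.34, 9.79, 9.53 and 10.01 at the early stage, 10.72, 11.31, 11.29 and 11.39 at the late stage and 11.68, 13.24, 12.31 and 12.30 at the very-late stage. The 3 stages did not overlap. MAMU-DRA rose by 1.51 ± 0.37 from early to late (limma, adjusted p = 0.0174) and by a further 1.20 ± 0.37 to very-late (adjusted p = 0.0375). The second rise did not pass without any one of late replicates 1 to 4 or very-late replicates 2, 3 and 4, and the first did not pass without early replicate 3 or late replicate 4. LOC705588, which carries the name of a DR beta chain as a synonym, rose by 1.52 ± 0.29 from early to late (adjusted p = 0.00347) and was at 0.73 from late to very-late (adjusted p = 0.123).

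MAMU-DQA1, the DQ alpha chain, rose by 1.60 ± 0.41 (adjusted p = 0.0217) and then by 1.52 ± 0.41 (adjusted p = 0.0169). Its first rise did not pass without early replicate 1 or 2 or late replicate 2 or 4, nor its second without late replicate 1 or very-late replicate 2. MAMU-DPA, the DP alpha chain, rose by 1.42 ± 0.34 (adjusted p = 0.0137) before a difference of 1.00 that did not pass (adjusted p = 0.0559). MAMU-DMA, a subunit of the chaperone that exchanges the remnant of CD74 for peptide, rose by 1.42 ± 0.33 (adjusted p = 0.0112) and again by 1.51 ± 0.33 (adjusted p = 0.00361). MAMU-DQB1, the DQ beta chain, did not pass from early to late (0.71, adjusted p = 0.454) and rose by 1.82 ± 0.46 from late to very-late (adjusted p = 0.0102). MAMU-DOA, which restrains DM and is known chiefly from B cells, was at 0.03 and 0.23 in the same comparisons on its representative probe set and did not pass. Another of its probe sets, under the 95th percentile of background in both stages, was 0.23 ± 0.07 higher at very-late than at late (adjusted p = 0.0438), a call lost in 12 of the fits that left out 1 array. Within arrays, MAMU-DRA minus CD74 changed by -0.07 ± 0.08 from early to late and by 0.43 ± 0.11 from late to very-late.

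Genes were also ranked by how closely they tracked each member over the 20 arrays, among 8878 genes above background, given as a description. The 5 genes most like CD74 were MAMU-DRA (r = 0.982), MAMU-DQA1 (r = 0.970), MAMU-DPA (r = 0.963), LOC705588 (r = 0.958) and MAMU-DMA (r = 0.937), all class II genes. After the stage means were taken out, the deviations of CD74 still correlated with those of MAMU-DRA at r = 0.94, MAMU-DQA1 at 0.91, MAMU-DPA at 0.81, LOC705588 at 0.79 and MAMU-DMA at 0.69. These values share the same arrays, and each array is 1 gland.

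No MHC gene was among the 5 most like B2M or MAMU-B. For B2M these were DCLRE1A (r = 0.867), OSTM1 (r = 0.855), LRRC58 (r = 0.835), APOE (r = 0.832), the apolipoprotein of cholesterol transport, and LOC716915 (r = 0.830). For MAMU-B they were LEPROT (r = 0.880), the interferon-responsive genes IFIT3 (r = 0.868) and PARP14 (r = 0.857), MLKL (r = 0.854), the effector of necroptosis, and MTM1 (r = 0.849). CD74 and MAMU-B correlated at r = 0.787, and B2M correlated with CD74 at r = 0.638 and with MAMU-B at r = 0.619. After the stage means were taken out, CD74 and MAMU-B correlated at r = 0.579. The deviations of B2M then correlated at r = 0.052 with those of CD74 and at r = -0.173 with those of MAMU-B.

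Genes that load peptide onto class I were examined from a fixed list of 12, of which 10 were measured. At the late stage 6 were higher than at early and 1 was lower, with a median difference of 0.57. Of all probe sets 7.58% were called in that comparison, and 3.61% were called higher. TAPBPL, a peptide editor, rose by 0.84 ± 0.21 (limma, adjusted p = 0.0174), ERAP1, which trims peptides in the endoplasmic reticulum, by 0.87 ± 0.16 (adjusted p = 0.00304), and CANX, the chaperone that holds new heavy chains, by 0.46 ± 0.09 (adjusted p = 0.00307). The rise of TAPBPL did not pass without late replicate 2, 3 or 4. TAP2, ERAP2 and PDIA3 also passed as higher. The call of TAP2 was kept in 13 of the 30 alternatives and lost in 14 fits that left out 1 array, that of ERAP2 was lost without early replicate 1, 3 or 4 or late replicate 2, 3 or 4, and that of PDIA3 without early replicate 2, 3 or 4 or late replicate 2, 3 or 4. SEC61B, of the translocation channel, fell by 0.43 (adjusted p = 0.0369), a call lost without early replicate 2, 3 or 4 or late replicate 1, 2 or 3. TAP1, which forms the peptide transporter with TAP2, was 0.67 higher without passing (adjusted p = 0.442). The count of 6 became 3 without early replicate 4 and 2 without late replicate 2, late replicate 3 or late replicate 4.

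From late to very-late only 1 of these 10 rose (ERAP1, 0.57 ± 0.16, adjusted p = 0.0240) and 1 fell (TAPBPL, a difference of -0.73 ± 0.21, adjusted p = 0.0236), with a median of -0.13, where 6.75% of all probe sets rose and 7.03% fell. ERAP1 did not pass without late replicate 1, late replicate 3, very-late replicate 2 or very-late replicate 3, nor TAPBPL without late replicate 2, 3 or 4 or very-late replicate 2 or 4. TAP1 was lower by 1.12 (a difference of -1.12, adjusted p = 0.0908) and did not pass. The 3 measured immunoproteasome genes had medians of 0.25 and -0.11 in these comparisons with none called, PSMB8 being at 0.85 from early to late (adjusted p = 0.152). PSMB8 and PSME2 passed the test for any difference between stages.

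Genes that process the invariant chain or turn class II over, 12 of 16 measured, changed mainly after the late stage. In late against early 1 rose (CTSS) and 1 fell (CD63), with a median of 0.20, whereas from late to very-late 8 rose and none fell, with a median of 0.99. Of all probe sets, 7.58% were called in the first comparison, and 6.75% rose in the second. CTSS, the protease that makes the last cuts in the invariant chain of macrophages and dendritic cells, rose by 1.78 ± 0.37 (limma, adjusted p = 0.00621) and then by 2.47 ± 0.37 (adjusted p = 0.000143), with stage means of 7.27 (early), 9.04 (late) and 11.51 (very-late). LGMN, which makes early cuts, rose by 2.81 ± 0.23 from late to very-late (adjusted p = 2.10e-07), and CTSL, a protease related to CTSS, by 2.08 ± 0.20 (adjusted p = 1.09e-06).

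IFI30, a thiol reductase of the endosome, rose by 2.66 ± 0.31 in that interval (adjusted p = 1.12e-05). From early to late LGMN (0.43, adjusted p = 0.341), CTSL (0.09, adjusted p = 0.890) and IFI30 (0.79, adjusted p = 0.159) did not pass. MARCHF1 and MARCHF8, ubiquitin ligases that remove class II from the surface, rose by 1.34 ± 0.26 (adjusted p = 0.00135, from 3.58 to 4.92) and 0.50 ± 0.10 (adjusted p = 0.00288) from late to very-late. The tetraspanin CD63 fell by 0.45 from early to late (adjusted p = 0.0182) and rose by 1.06 ± 0.11 to very-late (adjusted p = 3.67e-06). Its fall did not pass without early replicate 4 or late replicate 1.

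Of 5 measured partners of CD74 at the cell surface, 1 fell and none rose from early to late (median 0.09), where 7.58% of all probe sets were called. From late to very-late 1 rose and 1 fell (median -0.13), where 6.75% of all probe sets rose and 7.03% fell. MIF, the ligand of CD74, fell by 0.39 from early to late (limma, adjusted p = 0.0251), a call lost without early replicate 2 or 3 or late replicate 1, 2 or 4. MIF was at -0.13 from late to very-late (adjusted p = 0.505). DDT, the relative of MIF that also binds CD74, fell by 1.74 from late to very-late (a difference of -1.74 ± 0.39, adjusted p = 0.00452). CD44, which signals with CD74, rose by 0.97 ± 0.20 in that interval (adjusted p = 0.00222), from 3.63, under the 95th percentile of background, to 4.60. CXCR4 and ACKR3, chemokine receptors that also bind MIF, did not pass in either comparison, although CXCR4 was 1.24 higher at very-late than at early (adjusted p = 0.0168).

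**Figure D3:**
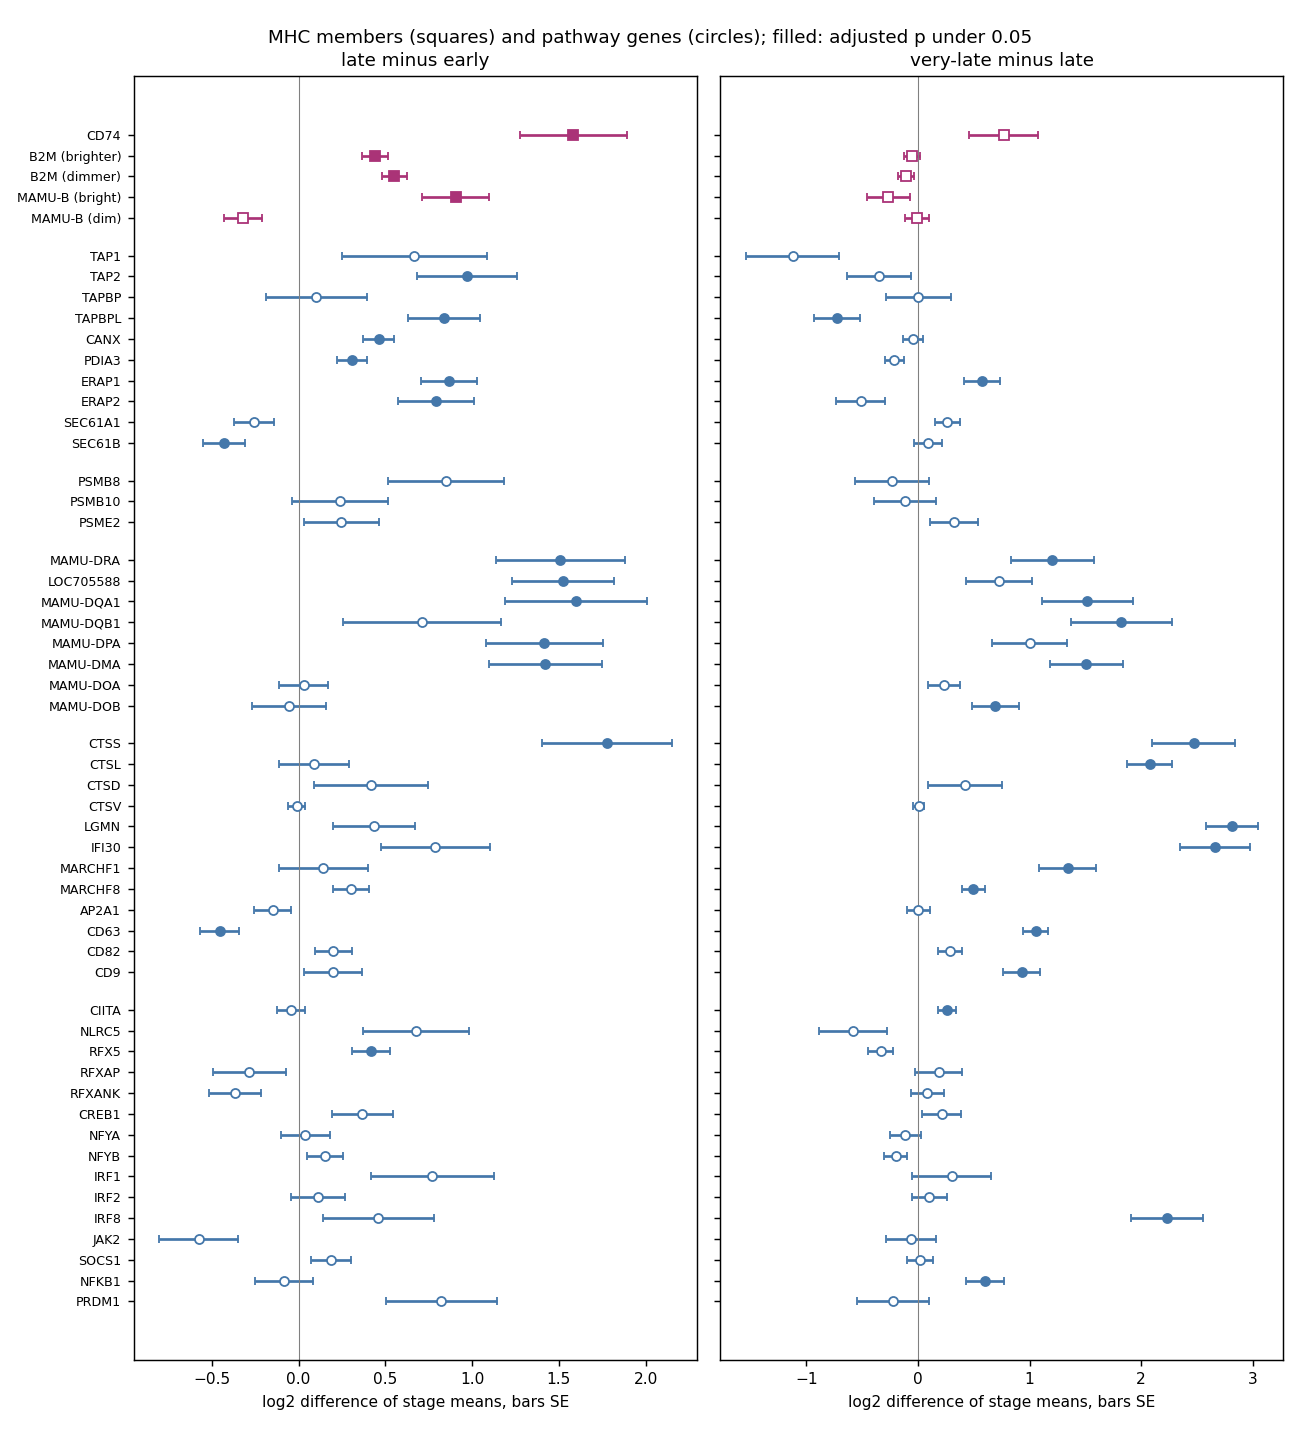
Differences of log2 stage means ± SE, late minus early and very-late minus late (n = 4 arrays per stage), for the members (squares) and genes of the pathway lists (circles), filled where limma's adjusted p is under 0.05. The representative probe sets (labelled brighter and bright) of B2M and MAMU-B lie above 0 in the first comparison and near or under 0 in the second, the dim MAMU-B probe set lies under 0 in the first, while CTSS, LGMN, IFI30 and CTSL lie above 2 in the second.

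Of 15 measured regulators of MHC transcription, 1 rose and none fell from early to late (median 0.15), where 3.61% of all probe sets rose. From late to very-late 3 rose and none fell (median 0.08), where 6.75% of all probe sets rose. RFX5, part of the complex on class II promoters, rose from early to late (0.42 ± 0.11, limma, adjusted p = 0.0264), and it did not pass without early replicate 1, early replicate 4, late replicate 3 or late replicate 4. CIITA, the class II transactivator, stayed close to background, with a late mean of 4.28 and a very-late mean of 4.54 (0.26 ± 0.08, adjusted p = 0.0357). This call was lost without late replicate 3 or 4 or very-late replicate 1, 2 or 3. IRF8, a transcription factor of macrophages and dendritic cells, rose by 2.23 ± 0.32 (adjusted p = 9.14e-05) and NFKB1 by 0.60 ± 0.17 (adjusted p = 0.0216), the latter lost without late replicate 1 or 3 or very-late replicate 2. The count of 3 became 1 without late replicate 3 or very-late replicate 2. IRF1 passed the test for any difference between stages (adjusted p = 0.00531) but neither of these comparisons. It was 1.07 ± 0.35 higher at very-late than at early (adjusted p = 0.04). NLRC5, the class I transactivator, was at 0.67 from early to late (adjusted p = 0.229) and at -0.58 from late to very-late, and passed in neither comparison.

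Among receptors that read class I, with 8 measured, 1 fell from early to late (KLRD1, list median 0.01), where 7.58% of all probe sets were called. From late to very-late 4 rose and 1 fell (median 0.49), where 6.75% of all probe sets rose and 7.03% fell. CD8B, a chain of the T cell co-receptor for class I, rose by 1.02 ± 0.10 at the very-late stage (limma, adjusted p = 1.34e-06), from 3.87 to 4.89, and CD8A by 0.60 ± 0.16 (adjusted p = 0.0131), a call lost without very-late replicate 2. LILRB1, an inhibitory receptor for class I, fell by 1.08 on its representative probe set (adjusted p = 0.000112), but the mean of its probe sets was higher by 1.72. LILRB4 rose by 1.72 ± 0.36 in that interval (adjusted p = 0.00293). KIR3DL12 rose by 2.24 ± 0.51 (adjusted p = 0.005) with overlapping arrays, a call kept in 28 of 30 alternatives. Among 10 costimulation genes, only 4 of them above background at any stage, CD86, which antigen-presenting cells show beside class II, rose by 2.77 ± 0.42 from late to very-late (adjusted p = 0.000139). CD86 was also higher by 1.45 ± 0.42 at late than at early (adjusted p = 0.0402), a call lost without any one of the 8 arrays of those stages or mid-late replicate 2.

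Levels of macrophage markers are given beside CD74, and their part in its change was not tested. The mean of 14 macrophage markers was 6.65 to 6.93 in the early arrays, 5.75 to 6.39 in the mid, 5.85 to 7.33 in the mid-late, 7.16 to 7.66 in the late and 8.36 to 8.94 in the very-late arrays. Of the 14, 2 rose from early to late (median 0.57), namely LYZ (2.24 ± 0.46, limma, adjusted p = 0.00548) and CYBB (1.31 ± 0.33, adjusted p = 0.0188). In that comparison 3.61% of all probe sets rose. The count of 2 became 1 without early replicate 2, early replicate 3 or late replicates 2, 3 or 4. From late to very-late 7 of the 14 rose and none fell, with a median of 1.48, where 6.75% of all probe sets rose. Others did not pass in that interval: the complement genes C1QA and C1QC were at -1.22 (adjusted p = 0.0942, all 4 very-late arrays below all 4 late arrays) and -0.92 (adjusted p = 0.214), and MRC1 and ITGAM at 0.04 and 0.05.

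CD68, a defining macrophage marker, was at 0.61 from early to late (adjusted p = 0.220) and rose by 2.70 ± 0.27 from late to very-late (adjusted p = 1.84e-06). CD68 minus CD74 within arrays changed by -0.98 ± 0.20 in the first interval and by 1.93 ± 0.26 in the second (exact permutation, adjusted p = 0.0727 for both). Late replicate 1, the late array lowest in CD74, MAMU-B and MAMU-DRA, was also the lowest of the 4 in macrophage markers, at 7.16 against 7.55 to 7.66. This was not particular to macrophage markers. That array was also lowest in class I peptide loading (8.15 against 8.62 to 8.73) and steroidogenic markers (11.03 against 11.69 to 11.90). In other lists it was highest, such as endothelial (8.21 against 8.05 to 8.12) and fibroblast markers (8.82 against 8.46 to 8.69).

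**Figure D4:**
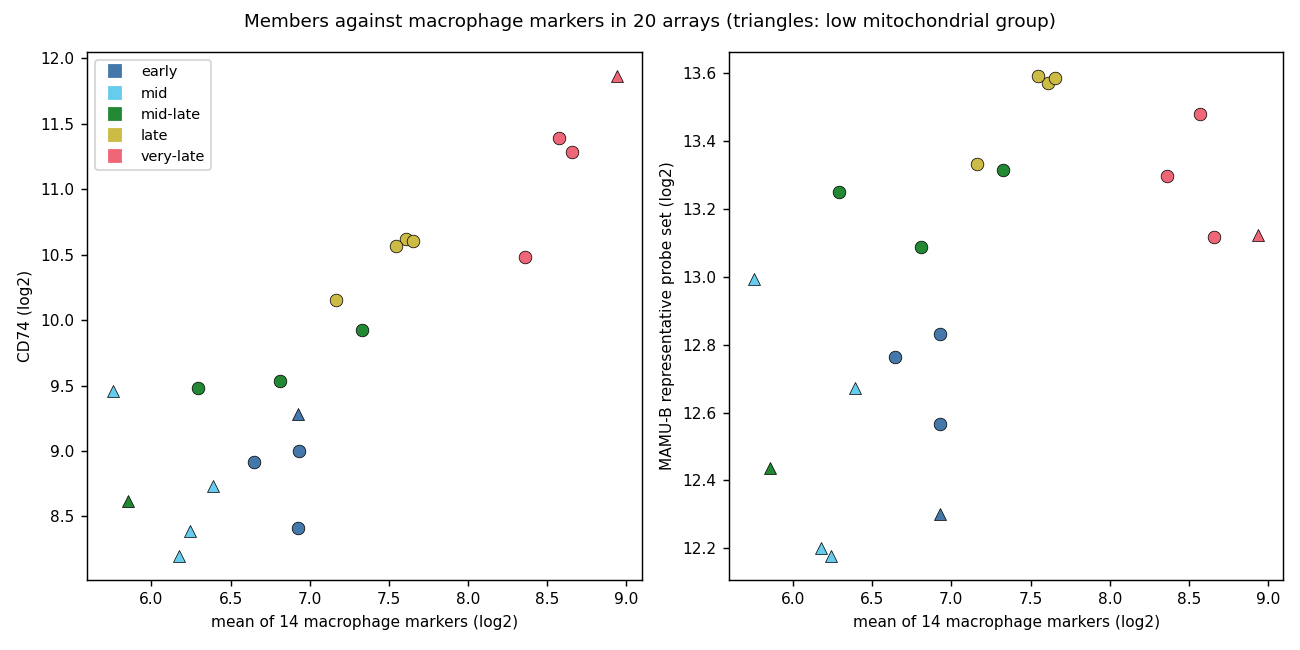
CD74 (left) and the representative MAMU-B probe set (right), log2, against the mean of 14 macrophage markers in each of the 20 arrays, coloured by stage, with triangles for the 7 arrays low in mitochondrial probe sets. The very-late arrays lie farthest right, at 8.36 to 8.94, with CD74 at 10.48 to 11.86, whereas the highest values of MAMU-B are those of 3 late arrays.

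Of 11 dendritic cell markers, 4 above background at some stage, 6 rose from late to very-late (median 0.30), among them CD83 by 3.20 ± 0.23 (limma, adjusted p = 3.72e-08). In that interval 6.75% of all probe sets rose. Also among the 6 were CD1A, FLT3 and CLEC10A, whose late and very-late means lay under the 95th percentile of background. CLEC9A, XCR1, CCR7, LAMP3 and CD207 did not pass. The 6 became 2 without late replicate 3 and 3 without very-late replicate 2. Of 7 measured B cell markers, 3 were above background at some stage. Among these, FCRL1 had means of 5.73 at late and 5.87 at very-late, without passing. MS4A1 and CD79A stayed at stage means of 3.51 to 3.97, within the range of the viral-genome probe sets. From late to very-late 1 of the 7 rose (median 0.06), namely CD22, an inhibitory receptor of B cells, where 6.75% of all probe sets rose. CD22 rose by 0.42 ± 0.09 from a mean of 4.27 to 4.69 (adjusted p = 0.00386). Of 5 measured T cell markers, 3 rose from late to very-late (CD8A, CD8B and TRAT1, list median 0.60), where 6.75% of all probe sets rose. TRAT1, under the 95th percentile of background in both stages, lost its call in 13 of the fits that left out 1 array. No dendritic, B or T cell marker was called in late against early (limma), where 7.58% of all probe sets were called. Of 9 endothelial markers, a cell type rich in class I, 4 rose from early to late (median 0.53) and 3 fell from late to very-late (median -0.40). Of all probe sets, 3.61% rose in the first comparison and 7.03% fell in the second. The 4 became 2 without early replicate 2 or early replicate 4 and 1 without late replicate 4.

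The mitochondrial split of the arrays overlaps with stage, since all mid arrays belong to the low group. On the 13 arrays of the high group, a subset chosen after seeing the data, the mean of CD74 was 8.78 at the early (n = 3), 9.64 at the mid-late (n = 3), 10.49 at the late (n = 4) and 11.05 at the very-late stage (n = 3). That of MAMU-B was 12.72, 13.22, 13.52 and 13.30 in the same arrays, so both kept the order of these stages. The low arrays of MAMU-B were the lowest of their stage at early (replicate 4, 12.30) and at mid-late (replicate 1, 12.44). With a term for this split, none of the 4 calls from mid to late passed. B2M was then at 0.40 (limma, adjusted p = 0.105) and 0.49 (adjusted p = 0.0628), CD74 at 1.89 (adjusted p = 0.0956) and MAMU-B at 0.55 (adjusted p = 0.413). For the mid stage the split and the stage cannot be told apart.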

How the data were processed

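The deposited table holds log2 values, 1 per probe set and array, which the authors made with RMA, per the submitters' processing notes. Its version, the chip definition and the genome build are not given in the sources used here. Per the labels' protocols, 2 µg of total RNA was labelled with biotin. The values were used as they stand. Array controls (158 of 52865 probe sets) were dropped. The platform annotation gave 24956 of the rest 1 symbol, 361 several and 27390 none. The members and gene lists were chosen with earlier results of these data known. Named genes of a list were drawn mainly from those passing limma's F test, at most 6 by p, and not every such gene was named. Exceptions and some genes that did not pass it stand beside them, and 4 list names were matched by synonym. A gene with several probe sets was represented by the one with the highest mean. In R 4.3.3, limma 3.58.1 fitted 5 stage means to 20 arrays (15 residual and 2.75 prior degrees of freedom), two-sided. The number of arrays limits the precision. The labels call arrays biological replicates. Exact permutation tests used SciPy 1.17.1. On simulated data, late against early recovered 78% of 50 probe sets with a 1.5-fold change, 88% where it was 2-fold, 96% of those changed 4-fold and 100% for 8-fold, with 5 false calls. Alternatives were scaling, dim probe sets, priors, array weights, probe set means, a replicate block, leaving out arrays, and the mitochondrial split.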

Additional observations from a re-analysis of the deposited data

Results flagged for a closer look

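In each group of 4 arrays, the highest or lowest array was singled out where its gap to the next was above Dixon's 95% critical value for the group's range, which chance gives in about 1 of 20 groups. Of 85 groups screened, 5 held such an array, and in 4 of these it was late replicate 1. CD74 there was 10.15 and low, with the other late arrays at 10.57 to 10.62. The representative MAMU-B probe set was 13.33 and low, against 13.57 to 13.59, and MAMU-DRA was 10.72 and low, against 11.29 to 11.39. MAMU-A was 12.11 and high in the same array, against 11.54 to 11.59. Steroidogenic markers averaged 11.03 in that array and 11.69 to 11.90 in the other late arrays. MAMU-E in mid replicate 1, on its brightest probe set, was 6.67 and low, with the other mid arrays at 10.45 to 10.71.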

How the results depend on the processing

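In the 30 alternatives (29 for comparisons with mid arrays), the late minus early and very-late minus early calls of CD74 and both B2M probe sets, and those of B2M from early to mid-late, were kept. Averaging the probe sets of each gene ended the call of MAMU-B (0.29, adjusted p = 0.106), MAMU-A and MAMU-E from early to late and of MAMU-E from late to very-late, and turned MAMU-B's other probe set from early to very-late (0.154), MAMU-F from early to late (0.878) and LILRB1 from late to very-late (1.718); counts of probe sets could not be recomputed on it.

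The following counts are over all probe sets. Mid against early went from 191 to 367 without dim probe sets, 534 with array weights, 614 without very-late replicates 1 and 2, and 19 with the mitochondrial term. Mid-late against early went from 1964 to 3758 (weights) and 3231 (without those 2 arrays), late against mid from 1143 to 2048, 2148 and 103 (mitochondrial term), and mid-late against mid from 6 to 26 (weights) and 1 (mitochondrial term). Late against mid-late went from 6 to 23 (no dim probe sets), 11 (loess), 185 (weights), 11 (robust prior), 53 (without the 2 arrays) and 3 (13 high arrays, a subset chosen after seeing the data). Very-late against late went from 7262 to 4704 without the 2 arrays. Member calls went from 5 to 3 in very-late against early (weights, and without the 2 arrays), from 4 to 2 in very-late against mid (without them) and from 4 to 0 in late against mid (mitochondrial term).

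Leaving out 1 array gave 2588 to 4933 calls in late against early, 0 to 83 in late against mid-late, 488 to 1795 in late against mid, 30 to 433 in mid against early, 806 to 2769 in mid-late against early and 1 to 21 in mid-late against mid. Member calls were 3 to 5 in very-late against early and 0 to 1 in very-late against late. The causes were not tested.

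With the replicate number as a block, mid against early gave 81 calls and late against mid-late 3, B2M lost its call from mid to late (adjusted p = 0.0797) and MAMU-B's other probe set from early to very-late (adjusted p = 0.0724). The numbers do not pair the arrays: 6 of 40 same-numbered pairs deviated together at over 0.1 (-0.208 to 0.214), and 3 of 20 arrays matched their own number best.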

Other observations

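Probe sets of one class I gene did not always agree. The brightest probe set of MAMU-E read 6.67 in mid replicate 1 and 7.09 in very-late replicate 2 and 9.04 to 11.63 in the other 18 arrays, and its late minus early difference of 1.76 ± 0.79 did not pass (limma, adjusted p = 0.226). A probe set of MAMU-F rose by 2.77 ± 0.31 from early to late (adjusted p = 5.20e-05), while the brightest one was at -0.21 (adjusted p = 0.460). Of 8 class I probe sets with several symbols, 5 rose from early to late (median 0.89) and 2 fell from late to very-late (median -0.26). Of all probe sets, 3.61% rose in the first comparison and 7.03% fell in the second. GZMB, the granzyme of cytotoxic lymphocytes, stood apart from CD8A and CD8B: it fell by 2.26 ± 0.37 from late to very-late (a difference of -2.26, adjusted p = 0.000304), from 11.96 to 9.69. Of 5 measured natural killer cell markers, GZMB alone was called lower in that interval, where 7.03% of all probe sets were. NKG7 alone was called higher (0.38 ± 0.11, adjusted p = 0.0299), where 6.75% were. That call was lost in 6 of the fits that left out 1 array. GNLY, KLRD1 and KLRF1 were higher without passing, and the median of the 5 was 0.375.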
